A study of Rattus norvegicus with 9 samples.

Results

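Glucose enters brain cells through membrane carriers, is split to pyruvate by the enzymes of glycolysis in the cytosol, and is burned in mitochondria by the citric acid cycle. Ketone bodies reach the same cycle without glycolysis, because they are turned into acetyl-CoA inside mitochondria. In brain, glycolysis and lactate production are usually ascribed more to astrocytes, and oxidative metabolism more to neurons. The genes described here are 32 members of these pathways in rat: 20 for glucose uptake and glycolysis and 12 for the citric acid cycle, with pyruvate, malate and succinate dehydrogenase left out. They were found by gene symbol among the probe sets of an Affymetrix rat array. A probe set is a group of short oligonucleotides whose signals are combined into 1 value.

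Of the 32 members, 29 had a probe set listed with that gene alone, out of 14217 such genes on the array. The 41 such probe sets included 34 that passed a filter on low signal (mean log2 value of at least 5.21), and these stood for 28 members. Hexokinase 2 (Hk2) did not pass, with a control mean of 4.84. Gapdh and Pkm were read only through a probe set shared with a second gene each, and Gapdh also through control probe sets. For fumarate hydratase (Fh) the annotation lists 0 probe sets. Where a gene had several, the one with the highest mean over all arrays stood for it.

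The 9 arrays fall into groups of 3. Controls received artificial cerebrospinal fluid alone, and the other groups were exposed to ketone bodies for 1 h or for 6 h. The RNA is labelled as from hippocampal neurons, with hippocampus as the tissue. The labels name no dose, ketone body, strain, age or control exposure time, and do not say that replicates are separate animals or cultures. Each p therefore measures only the spread between these 9 arrays, which may be technical. Signal above the filter was found for all 12 neuron markers looked up, and also for 8 of 8 astrocyte markers and 6 of 7 oligodendrocyte markers, so RNA of glia was measured too. Levels of different probe sets do not give the shares of these cells. Fewer cells of a type and less RNA per cell cannot be told apart in such samples.

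Values below are log2(signal + 16) after quantile normalization, and errors of log2 changes are standard errors with n = 3 arrays per group. Some arrays stood apart. A principal component analysis placed 45.0% of the variance on its leading axis, where replicate 1 at 6 h and replicate 3 at 1 h lay farthest from 0. RNA quality was read from beta-actin control probe sets as a log2 ratio of 3' to 5' signal, which is higher where RNA is more degraded. It was 1.19 to 1.45 in control, 1.39 to 2.10 at 1 h and 1.02 to 2.60 at 6 h. The highest value belonged to replicate 1 at 6 h. The same ratio for Gapdh was 0.017 to 0.23 in control, 0.054 to 0.12 at 1 h and 0.046 to 0.50 at 6 h. For hexokinase it was 0.79 to 1.40 in control, 1.30 to 1.97 at 1 h and 0.69 to 2.18 at 6 h. The 3 ratios thus did not rank the groups alike. With the mean 3'/5' ratio of beta-actin and Gapdh as a covariate, the median log2 change of the members described below was 0.018 at 1 h and 0.003 at 6 h, where it was 0.084 and 0.032 without it. The median of all genes fell as well, to 0.043 at 1 h and 0.014 at 6 h from 0.066 and 0.037.

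No member passed the test at either time. In simulated data the test called 19.4% of true log2 changes of 0.5, so a missing call does not show that a member was unchanged. By limma with Benjamini-Hochberg adjustment over 18625 probe sets, 0 of 28 members had an adjusted p under 0.05 at 1 h against control, 0 at 6 h and 0 between the times. The share of all probe sets called was 0.0322% at 1 h, 0.0268% at 6 h and 0% between the times. Counted by gene, the called shares were 0.028%, 0.028% and 0%. At an unadjusted p under 0.05 there were 2 members at 1 h, both higher (12.2% of all genes, 8.84% higher). There was 1 at 6 h, also higher (4.14% of all genes, 3.3% higher). Between the times there was 1, lower at 6 h (2.86% of all genes, 1.63% lower), and each of these genes encodes a citric acid cycle enzyme. The lowest adjusted p of a member was 0.352 at 1 h, 0.987 at 6 h and 0.997 between the times.

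The changes were also bounded. At 1 h the 95% interval of the log2 change lay within 1.5-fold in both directions for 26 of the 28 members, the exceptions being Hk1 and Dlst. At 6 h this held for 24, the exceptions being Hk1, Pfkfb3, Dlst and Suclg2. The interval included 0 for all 17 tested uptake and glycolysis members in each of the 3 comparisons.

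**Figure D1:**
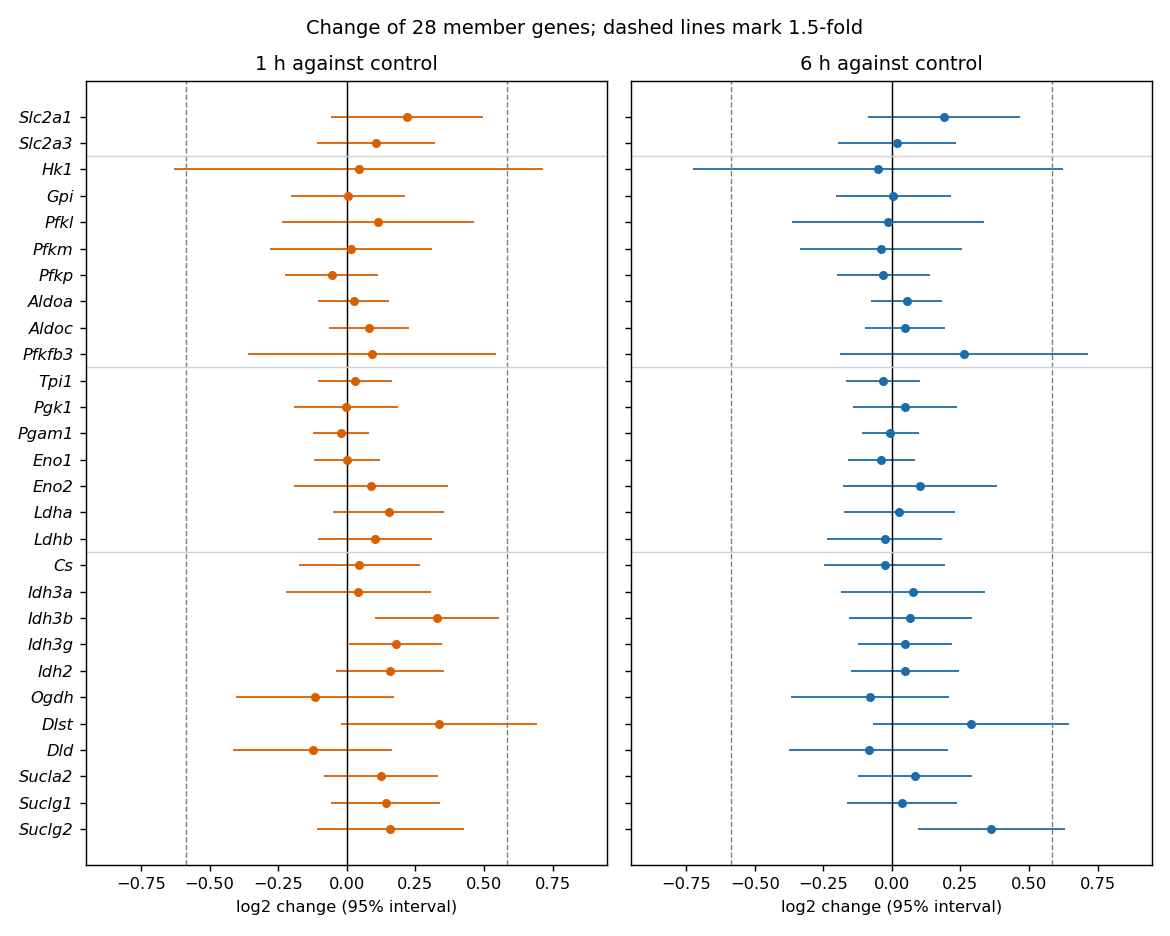
Log2 change (x axis) of each of the 28 tested members (y axis, grouped by role from glucose carriers at the top to the citric acid cycle at the bottom) at 1 h and 6 h against control, as a point with its 95% interval. Most intervals cross 0 and lie inside the dashed lines at 1.5-fold. Those of Idh3b and Idh3g at 1 h and of Suclg2 at 6 h lie to the right of 0.

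The size of the smaller shifts, and the sign of several, depended on the scaling of the arrays. After quantile normalization 23 of 28 members had a positive log2 change at 1 h (63.5% of all 10707 genes were positive), with a median of 0.084 beside 0.066 for all genes. In the values as deposited 26 of 28 were positive (58.4% of all genes), and the median was 0.15 beside 0.041. With array medians subtracted 28 of 28 were positive (75.3% of all genes), and the median was 0.26 beside 0.15. Relative to all genes, the members' median was thus 0.018 higher after quantile normalization and 0.11 higher in the values as deposited. Subtracting array medians shifts all genes of an array alike, so it leaves the 0.11 unchanged by construction. The 1 h arrays lay above all control arrays in 6 members after quantile normalization (16.8% of all genes), in 16 in the values as deposited (15.1%) and in 19 with array medians subtracted (27.6%). They lay below in 1 (5.94%) and, as deposited, in 0 (7.49%). At 6 h 17 of 28 members were positive after quantile normalization (61.3% of all genes). The 6 h arrays lay above the control in 1 member (7.18%), in 2 as deposited (5.79%) and in 3 with array medians subtracted (9.39%), and below in 0 after quantile normalization (2.4%). At 6 h the medians were 0.032 (all genes 0.037), 0.072 (all genes 0.024) and 0.15 (all genes 0.10) in the same order. Leaving out replicate 3 of the control gave a members' median of 0.032 at 1 h and -0.009 at 6 h, and leaving out replicate 1 of the control 0.13 and 0.072. Under all 3 scalings 0 members passed. With array medians subtracted, the intervals of 19 members at 1 h lay within 1.5-fold. Those of 14 members excluded 0, namely 8 of the 17 glycolysis members and 6 of the 11 citric acid cycle members. An interval excludes 0 where the unadjusted limma p is under 0.05, which held for 2615 of all 18625 probe sets. In the values as deposited the intervals of 25 members lay within 1.5-fold and those of 7 excluded 0. These were 5 glycolysis and 2 citric acid cycle members, beside 2200 of the 18625 probe sets.

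By array, the median deviation of the 17 uptake and glycolysis members from their control means was 0.087, -0.009 and -0.10 in control, 0.050, -0.009 and 0.074 at 1 h, and 0.17, -0.060 and -0.020 at 6 h. The groups overlapped, with replicate 1 at 6 h highest and replicate 3 of the control lowest. For the 11 citric acid cycle members the values were 0.051, 0.024 and -0.048 in control, 0.097, 0.16 and 0.079 at 1 h, and 0.14, 0.079 and 0.053 at 6 h. Here all ketone arrays lay above all control arrays, by a margin of 0.053 against 0.051 at the closest. All genes gave -0.022 to 0.026 in control, 0.052 to 0.097 at 1 h and -0.006 to 0.10 at 6 h, so the background also lay higher at 1 h.

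**Figure D2:**
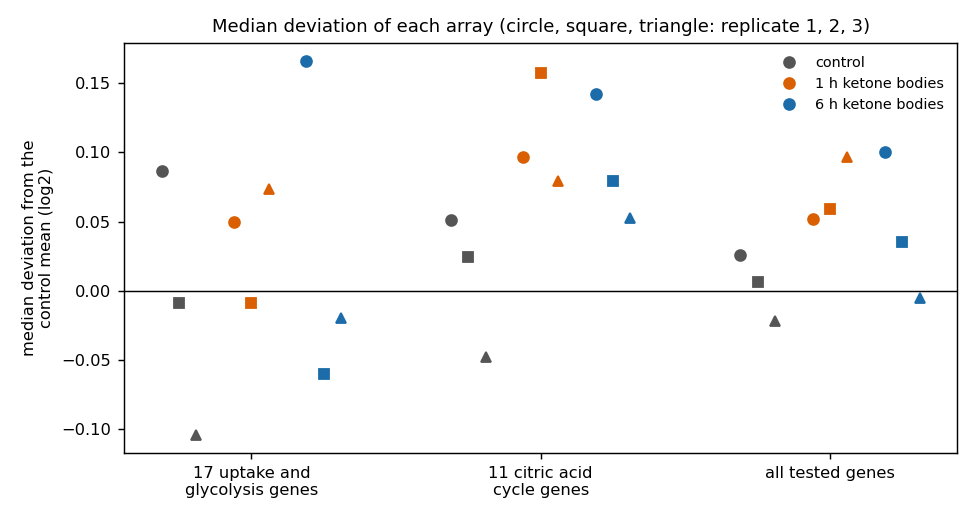
Median deviation of each array from the control mean (y axis, log2) for the uptake and glycolysis members, the citric acid cycle members and all tested genes, with colour for group and marker shape for replicate. Control and ketone arrays overlap for glycolysis, where replicate 1 at 6 h is highest at 0.17, and do not overlap for the citric acid cycle.

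Of the 17 uptake and glycolysis members, the 1 h arrays lay above all control arrays in 1 after quantile normalization (16.8% of all genes). They did so in 8 in the values as deposited (15.1%) and in 10 with array medians subtracted (27.6%). The 1 after quantile normalization was Slc2a1. Slc2a1 (GLUT1), the carrier of the blood-brain barrier and of glia, had log2 values of 8.48, 8.50 and 8.55 in control, 8.67, 8.84 and 8.69 at 1 h, and 8.96, 8.64 and 8.49 at 6 h. All 1 h arrays lay above all control arrays, as they did for 16.8% of all genes, while the 6 h arrays overlapped both groups. The log2 change was 0.22 ± 0.12 at 1 h (limma adjusted p = 0.506, a fold of 1.17 with a 95% interval of 0.96 to 1.41) and 0.19 ± 0.12 at 6 h (adjusted p = 0.987). Without replicate 1 at 6 h the 6 h change was 0.06, and with the 3'/5' ratio as a covariate the changes were 0.13 and 0.07. Brain endothelium also carries GLUT1. The 7 endothelial markers tested, Slc2a1 among them, had changes of 0.001 (Tek) to 0.22 (Slc2a1) at 1 h and of -0.06 (Tek) to 0.33 (Abcb1a) at 6 h, with 0 called. Their part in the Slc2a1 values was not tested. Slc2a3 (GLUT3), the main carrier of neurons, had 9.06, 8.95 and 8.85 in control, 9.003, 9.03 and 9.15 at 1 h, and 9.07, 8.88 and 8.97 at 6 h, and the groups overlapped. Its changes were 0.11 ± 0.10 at 1 h and 0.02 ± 0.10 at 6 h.

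For the enzymes that trap and split glucose the groups overlapped after quantile normalization. The 6 h intervals of Hk1 and Pfkfb3 reached beyond 1.5-fold, so their changes were poorly bounded. In upper glycolysis 8 genes were tested, and their log2 changes ran from -0.06 (Pfkp) to 0.11 (Pfkl) at 1 h and from -0.05 (Hk1) to 0.26 (Pfkfb3) at 6 h, with 0 genes whose groups did not overlap. Gpi, which converts glucose 6-phosphate to fructose 6-phosphate, had changes of 0.004 ± 0.094 and 0.005 ± 0.094. Among the phosphofructokinase subunits, which set the pace of the pathway, the platelet-type Pfkp read 11.36, 11.29 and 11.27 in control, 11.32, 11.11 and 11.32 at 1 h, and 11.36, 11.19 and 11.27 at 6 h. The groups overlapped, and its changes were -0.06 ± 0.08 at 1 h and -0.03 ± 0.08 at 6 h. The liver-type Pfkl had 0.11 ± 0.16 and -0.015 ± 0.157. Its arrays read 8.23, 8.03 and 7.87 in control, 8.21, 8.02 and 8.25 at 1 h, and 8.35, 7.93 and 7.81 at 6 h, and the groups overlapped.

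Pfkfb3 makes fructose 2,6-bisphosphate, the strongest activator of phosphofructokinase. It read 7.40, 6.88 and 6.95 in control, 7.17, 7.24 and 7.10 at 1 h, and 7.80, 7.12 and 7.10 at 6 h. The 6 h change of 0.26 ± 0.20 (adjusted p = 0.987) rested on replicate 1, and was 0.04 without it. Aldolase splits the doubly phosphorylated sugar. Its brain form Aldoc, an astrocyte marker, read 11.69, 11.80 and 11.62 in control, 11.69, 11.86 and 11.81 at 1 h, and 11.77, 11.76 and 11.72 at 6 h (changes of 0.08 ± 0.07 and 0.05 ± 0.07). Aldoa read 12.62, 12.50 and 12.52 in control, 12.55, 12.60 and 12.56 at 1 h, and 12.71, 12.55 and 12.54 at 6 h (0.02 ± 0.06 and 0.05 ± 0.06). For both forms of aldolase the groups overlapped. At 1 h the upper bound of the fold was 1.17 for Aldoc and 1.11 for Aldoa, and at 6 h it was 1.14 for both. These bounds hold for quantile normalization. The 1 h log2 changes were 0.22 for Aldoc and 0.15 for Aldoa in the values as deposited, and 0.32 and 0.25 with array medians subtracted.

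Lower glycolysis yields ATP and pyruvate, and lactate dehydrogenase turns pyruvate to lactate. Log2 changes of the 7 tested genes ran from -0.02 (Pgam1) to 0.15 (Ldha) at 1 h and from -0.04 (Eno1) to 0.10 (Eno2) at 6 h. The phosphoglycerate mutase Pgam1 had 12.09, 12.12 and 12.16 in control, 12.12, 12.10 and 12.09 at 1 h, and 12.09, 12.13 and 12.13 at 6 h. Its fold lay between 0.92 and 1.06 at 1 h after quantile normalization (95% interval). With array medians subtracted the 1 h interval of Pgam1 excluded 0. That of Tpi1 excluded 0 under this scaling and in the values as deposited. Pgk1, which makes the first ATP of the pathway, had 12.11, 11.95 and 12.09 in control, 12.18, 12.04 and 11.92 at 1 h, and 12.18, 11.95 and 12.16 at 6 h, with overlapping groups. Its 1 h change was -0.003 ± 0.085, but 0.15 in the values as deposited and 0.25 with array medians subtracted. Enolase makes phosphoenolpyruvate. The ubiquitous Eno1 had a change of 0.002 ± 0.054 at 1 h and -0.04 ± 0.05 at 6 h, with arrays at 11.64, 11.70 and 11.63 in control, 11.66, 11.60 and 11.71 at 1 h, and 11.65, 11.60 and 11.61 at 6 h. The 1 h change of Eno1 was 0.14 as deposited and 0.24 with array medians subtracted. The neuronal Eno2 had 11.73, 11.46 and 11.60 in control, 11.74, 11.56 and 11.74 at 1 h, and 12.01, 11.52 and 11.56 at 6 h. Its 6 h change of 0.10 ± 0.13 was -0.05 without replicate 1 at 6 h.

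Ldha encodes the subunit of lactate dehydrogenase that favours lactate production, and Ldhb the one that favours lactate use. Ldha had 11.27, 11.32 and 10.97 in control, 11.29, 11.32 and 11.41 at 1 h, and 11.26, 11.22 and 11.17 at 6 h. Replicate 3 of the control was low, and without it the 1 h change of 0.15 ± 0.09 was 0.04. Ldhb had 12.12, 11.97 and 11.88 in control, 12.05, 12.17 and 12.06 at 1 h, and 12.16, 11.93 and 11.80 at 6 h, with a change of 0.10 ± 0.09 at 1 h. In the values as deposited these 1 h changes were 0.28 for Ldha and 0.25 for Ldhb.

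Gapdh and Pkm have to be read with care. The probe set listed with Gapdh and Gapdhl10 had 12.65, 12.53 and 12.45 in control, 12.63, 12.65 and 12.55 at 1 h, and 12.54, 12.52 and 12.60 at 6 h. Its change was 0.06 ± 0.06 at 1 h and 0.009 ± 0.058 at 6 h. The probe set listed with Pkm and Pkm-ps20, for the pyruvate kinase of muscle and brain, had 11.42, 11.41 and 11.25 in control, 11.42, 10.999 and 11.41 at 1 h, and 11.49, 11.02 and 11.31 at 6 h. Its change was -0.09 ± 0.14 at both times. Neither probe set separated the groups, and a signal from the second listed gene cannot be told apart from that of Gapdh or Pkm.

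**Figure D3:**
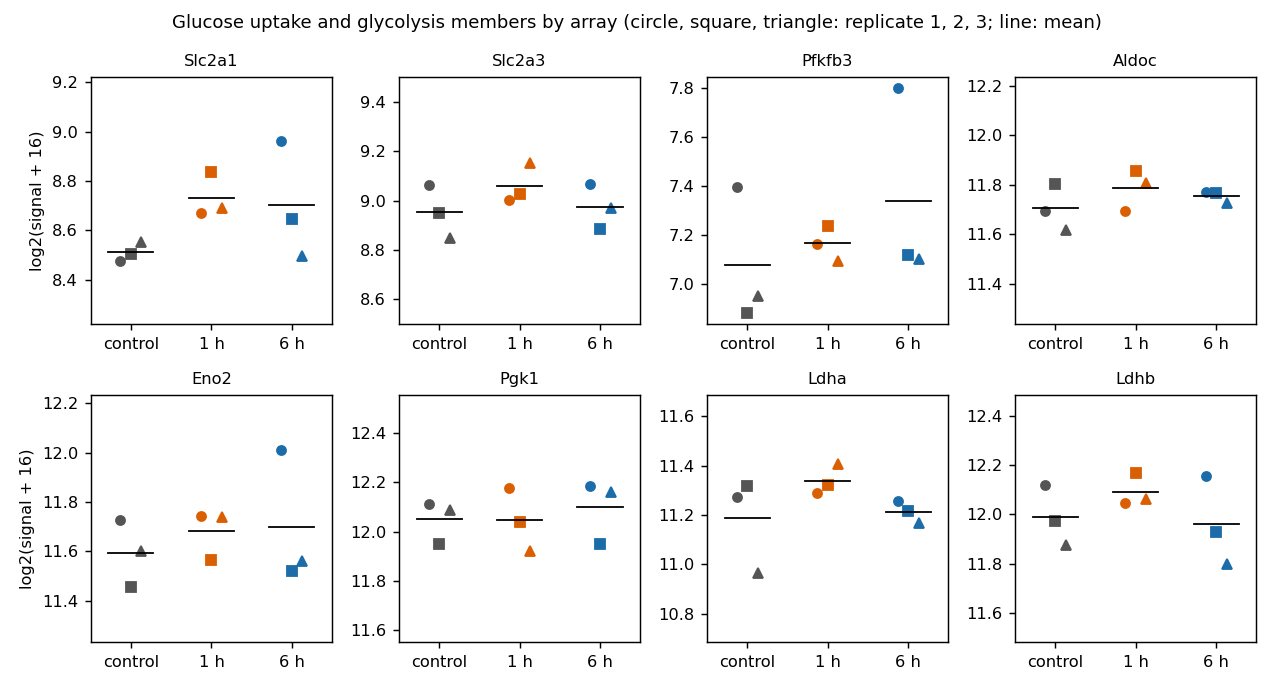
log2(signal + 16) after quantile normalization (y axis, at least 1 log2 unit per panel) of 8 uptake and glycolysis members on each array, by group (x axis), with marker shape for replicate and a line at the group mean. The 1 h arrays of Slc2a1 lie above its control arrays, and replicate 1 at 6 h is the highest point for Slc2a1 (8.96), Pfkfb3 (7.80) and Eno2 (12.01).

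The promoters of Ldha and Slc2a1 are shown because both genes are textbook targets of the hypoxia-inducible factor, a main regulator of glycolysis genes. The 250 bases before the gene start are printed 5′ to 3′ on the gene's strand, from RefSeq (GRCr8, chr1:106507842-106508091, plus strand, and chr5:138002272-138002521, plus strand), with matches to ACGTG or GCGTG on either strand in capitals.
Ldha promoter: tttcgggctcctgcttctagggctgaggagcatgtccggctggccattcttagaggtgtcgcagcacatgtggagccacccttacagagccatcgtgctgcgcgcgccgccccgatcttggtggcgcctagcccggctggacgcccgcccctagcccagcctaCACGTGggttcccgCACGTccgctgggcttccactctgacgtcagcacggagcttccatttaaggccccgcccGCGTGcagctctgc
Slc2a1 promoter: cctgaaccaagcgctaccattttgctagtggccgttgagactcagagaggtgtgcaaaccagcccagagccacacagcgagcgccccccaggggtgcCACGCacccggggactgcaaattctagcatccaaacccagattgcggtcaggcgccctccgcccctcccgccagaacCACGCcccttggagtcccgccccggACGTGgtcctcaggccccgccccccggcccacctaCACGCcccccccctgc
Each holds 4 matches, of which a pair in Ldha lies on opposite strands of CACGTG, an E-box. A match was found in 40.8% of 21851 promoters of protein-coding genes and in 17 of the 29 members with a promoter entry. Such letters are common, and a match is not a binding site. The factor's other known targets are given further below.

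The citric acid cycle held the members with the clearest separation of groups. Of 11 tested genes, 9 had a positive log2 change at 1 h (median 0.14, against 0.066 for all genes). The groups did not overlap in 6, of which 5 were higher at 1 h (16.8% of all genes) and 1 was lower (5.94% of all genes). At 6 h 8 were positive (median 0.048, against 0.037 for all genes), and 1 did not overlap with the control and was higher (7.18% of all genes). In the values as deposited the medians were 0.18 at 1 h and 0.091 at 6 h, and 8 genes were higher at 1 h without overlap (15.1% of all genes).

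Isocitrate dehydrogenase 3 is the NAD-dependent enzyme of the cycle, with a catalytic alpha subunit (Idh3a) and the beta and gamma subunits (Idh3b, Idh3g). Idh3b had log2 values of 10.34, 10.26 and 10.07 in control, 10.48, 10.62 and 10.55 at 1 h, and 10.13, 10.45 and 10.30 at 6 h. The 1 h arrays lay above all others, and the 6 h arrays overlapped the control. The change was 0.33 ± 0.10 at 1 h, a fold of 1.26 (95% interval 1.07 to 1.47, limma adjusted p = 0.352, and 0.195 to 0.773 over 21 alternative settings). At 6 h it was 0.07 ± 0.10, and 6 h against 1 h gave -0.26 ± 0.10 (adjusted p = 0.997).

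Idh3g had 10.35, 10.37 and 10.21 in control, 10.49, 10.47 and 10.51 at 1 h, and 10.27, 10.44 and 10.36 at 6 h. Again the 1 h arrays lay above all others, with a change of 0.18 ± 0.08 (a fold of 1.13, 95% interval 1.01 to 1.27, adjusted p = 0.423). At 6 h the change was 0.05 ± 0.08. The catalytic Idh3a had 10.41, 10.09 and 10.39 in control, 10.37, 10.33 and 10.32 at 1 h, and 10.58, 10.38 and 10.17 at 6 h. Its groups overlapped, with changes of 0.04 ± 0.12 and 0.08 ± 0.12. The intervals of Idh3a and Idh3b overlap, and a difference between the subunits was not tested. With the 3'/5' ratio as a covariate the 1 h changes were 0.35 for Idh3b and 0.20 for Idh3g, and without replicate 3 of the control they were 0.25 and 0.13. Idh3a is described as the remaining subunit and was added after its values were seen.

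The 2-oxoglutarate dehydrogenase complex oxidizes the next intermediate. Its core subunit Dlst had 8.70, 8.93 and 8.76 in control, 9.06, 8.95 and 9.38 at 1 h, and 9.34, 8.77 and 9.14 at 6 h. The 1 h arrays lay above the control, by a narrow margin for replicate 2. The log2 change was 0.34 ± 0.16 at 1 h (adjusted p = 0.459) and 0.29 ± 0.16 at 6 h (adjusted p = 0.987). Leaving out replicate 3 at 1 h gave 0.21 at 1 h, and leaving out replicate 1 at 6 h gave 0.16 at 6 h. The first subunit, Ogdh, had 9.61, 9.61 and 9.54 in control, 9.47, 9.45 and 9.50 at 1 h, and 9.83, 9.26 and 9.43 at 6 h. It was the member whose 1 h arrays all lay below the control, with a change of -0.12 ± 0.13. In the values as deposited 0 members lay below the control without overlap. The third subunit, Dld, which this complex shares with pyruvate dehydrogenase, had -0.12 ± 0.13 at 1 h and -0.08 ± 0.13 at 6 h, with overlapping groups. The complex's subunits thus differed in sign, and a difference between them was not tested.

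Succinyl-CoA ligase makes a nucleoside triphosphate from succinyl-CoA. It pairs the alpha subunit (Suclg1) with an ATP-forming (Sucla2) or a GTP-forming (Suclg2) beta subunit, and it works next to the transferase by which ketone bodies are activated with succinyl-CoA. Suclg2 had 8.67, 8.63 and 8.64 in control, 8.74, 8.97 and 8.70 at 1 h, and 8.83, 9.23 and 8.97 at 6 h. All ketone arrays lay above all control arrays, by a narrow margin for replicate 3 at 1 h. The log2 change was 0.16 ± 0.12 at 1 h and 0.36 ± 0.12 at 6 h, a fold of 1.29 (95% interval 1.07 to 1.55, adjusted p = 0.987, and 0.48 to 1.00 over 21 alternative settings). It was 0.45 without replicate 1 at 6 h and 0.25 without replicate 2 at 6 h. Without replicate 2 at 1 h the 1 h change was 0.08. Suclg2 was the only member with groups apart from the control at 6 h after quantile normalization. Of all genes, 7.18% were higher at 6 h without overlap and 2.4% lower. For Suclg2, 6 h against 1 h gave 0.20 ± 0.12, or 0.09 without replicate 2 at 6 h.

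Sucla2 had 10.42, 10.51 and 10.40 in control, 10.54, 10.72 and 10.44 at 1 h, and 10.40, 10.66 and 10.53 at 6 h, and the groups overlapped (0.12 ± 0.09 and 0.08 ± 0.09). Without replicate 2 at 1 h the 1 h change was 0.05. Suclg1 had 10.21, 10.16 and 10.05 in control, 10.23, 10.37 and 10.24 at 1 h, and 10.09, 10.33 and 10.10 at 6 h. Its 1 h arrays lay just above the control, with a change of 0.14 ± 0.09, while the 6 h change was 0.04 ± 0.09. In all 3 genes replicate 2 was the highest array at 1 h and at 6 h. Citrate synthase (Cs), which admits acetyl-CoA to the cycle, had 0.05 ± 0.10 at 1 h and -0.03 ± 0.10 at 6 h. The NADP-dependent Idh2 had 0.16 ± 0.09 and 0.05 ± 0.09.

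**Figure D4:**
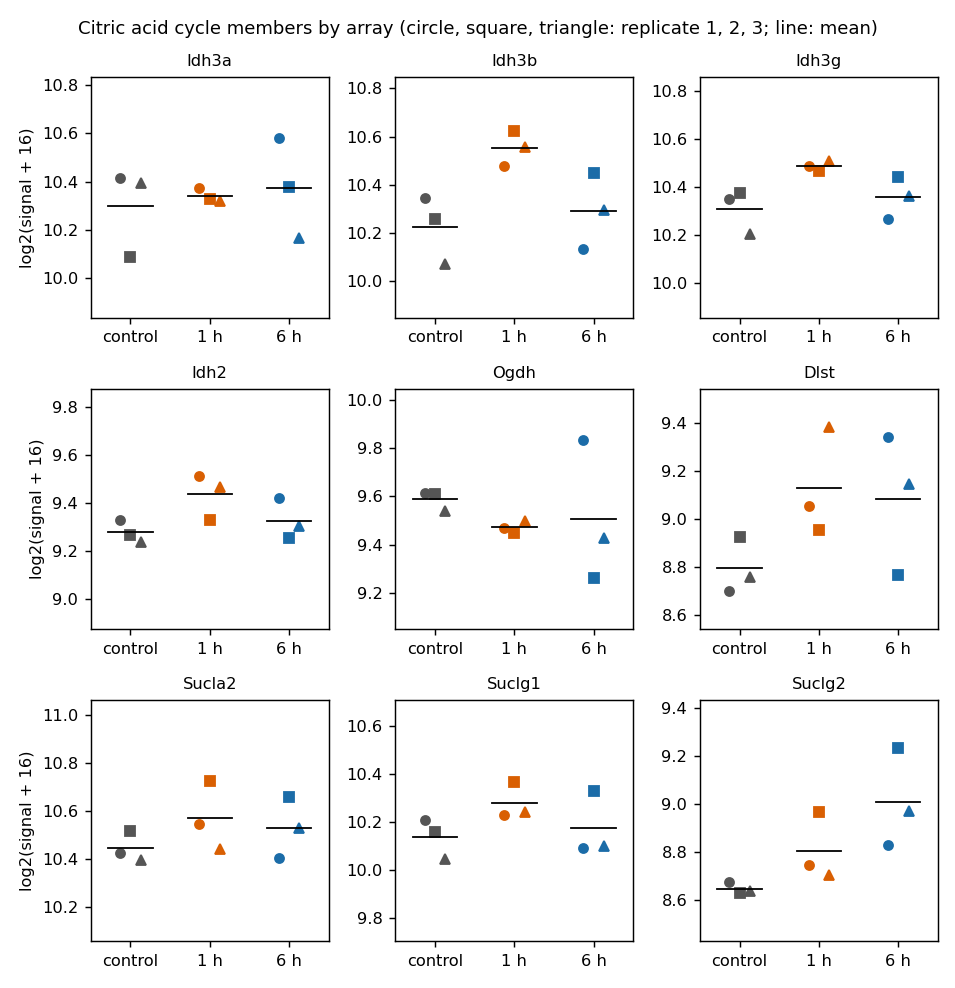
log2(signal + 16) after quantile normalization (y axis, at least 1 log2 unit per panel) of 9 citric acid cycle members on each array, by group (x axis), with marker shape for replicate and a line at the group mean. The 1 h arrays of Idh3b and Idh3g lie above the control and 6 h arrays, and all ketone arrays of Suclg2 lie above its control arrays, up to 9.23.

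The promoters of Idh3b, Idh3g and Dlst are shown because these genes had the smallest p of the citric acid cycle at 1 h, and each holds the core CCGGAAG of the ETS family (searched on both strands). That family includes GABP, a factor known for genes of mitochondrial enzymes. The 250 bases before the gene start are printed 5′ to 3′ on the gene's strand, from RefSeq (GRCr8, chr3:137939991-137940240, minus strand, chrX:156675483-156675732, minus strand, and chr6:110489456-110489705, plus strand), with the match in capitals.
Idh3b promoter: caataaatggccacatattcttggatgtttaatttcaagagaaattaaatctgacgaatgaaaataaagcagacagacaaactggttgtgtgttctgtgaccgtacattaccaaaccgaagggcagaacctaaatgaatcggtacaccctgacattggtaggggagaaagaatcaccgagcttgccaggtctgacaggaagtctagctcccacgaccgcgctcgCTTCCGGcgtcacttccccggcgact
Idh3g promoter: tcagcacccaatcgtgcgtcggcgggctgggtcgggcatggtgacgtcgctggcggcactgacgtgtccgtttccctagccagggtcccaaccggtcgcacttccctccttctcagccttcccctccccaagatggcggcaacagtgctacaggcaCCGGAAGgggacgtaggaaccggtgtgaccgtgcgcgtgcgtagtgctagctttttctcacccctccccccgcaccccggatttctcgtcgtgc
Dlst promoter: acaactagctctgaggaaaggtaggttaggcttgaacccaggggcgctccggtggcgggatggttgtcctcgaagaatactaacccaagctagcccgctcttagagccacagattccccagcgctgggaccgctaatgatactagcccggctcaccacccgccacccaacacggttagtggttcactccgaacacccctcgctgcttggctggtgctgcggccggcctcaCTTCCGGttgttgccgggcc
The match starts 26 bases before the start in Idh3b, 94 in Idh3g and 20 in Dlst. It was found in 3 of the 29 members with a promoter entry, these genes alone, and in 9.01% of 21851 promoters. It was picked after the values were seen, out of 8 motifs searched. The others were the hypoxia factor core above, GGGCGG (20 members, 38.9% of promoters), CACGTG (3 members, 6.16%), TGACGTCA (2 members, 1.89%), TATAAA (2 members, 12.1%), the NRF1 motif (1 member, 0.975%) and TCAAGGTCA (0 members, 0.32%).

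Between the times, 17 of 28 members were lower at 6 h than at 1 h and 11 were higher (42.8% of all genes were higher; median -0.040, against -0.026 for all genes). The groups did not overlap in Tpi1, Ldha, Idh3b and Idh3g, each lower at 6 h (4.99% of all genes were lower without overlap), and in 0 genes that were higher (3.73% of all genes). In the values as deposited 3 members were lower without overlap (4.9% of all genes). Both comparisons with control use the same control arrays, so the 1 h and 6 h values of a gene are not independent.

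Genes with several probe sets did not always give 1 answer. A further Slc2a3 probe set had -0.55 ± 0.42 at 1 h and -0.68 ± 0.42 at 6 h, opposite in sign to the one above. It read 6.72, 6.58 and 6.28 in control, 6.52, 5.64 and 5.78 at 1 h, and 4.80, 6.03 and 6.72 at 6 h, lowest on replicate 1 at 6 h. A further Pfkm probe set had -0.35 ± 0.32 and -0.40 ± 0.32, where the main one had 0.02 ± 0.13 and -0.04 ± 0.13 and the remaining one -0.01 ± 0.27 and -0.02 ± 0.27. Further Cs probe sets had -0.16 ± 0.15 and -0.08 ± 0.19 at 1 h, and -0.30 ± 0.15 and -0.20 ± 0.19 at 6 h. Counted over all 34 probe sets, the members' median was 0.044 at 1 h and 0.012 at 6 h.

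Hexokinase 1 shows the spread along 1 transcript, because the array carries control probe sets for its 5' end, middle and 3' end. The main Hk1 probe set, for the enzyme that traps glucose in brain cells, had 10.002, 9.78 and 9.59 in control, 9.96, 9.43 and 10.12 at 1 h, and 10.46, 9.06 and 9.71 at 6 h. The 6 h arrays included both the highest and the lowest value, and its change was 0.04 ± 0.30 at 1 h and -0.05 ± 0.30 at 6 h, the widest error of the members. The 5' control set had 6.30, 6.66 and 6.55 in control, 6.28, 5.64 and 5.74 at 1 h, and 5.11, 5.99 and 6.90 at 6 h. Its 1 h arrays lay below the control, with differences of -0.62 at 1 h and -0.50 at 6 h, while the middle set differed by -0.55 and -0.68 and the 3' set by -0.18 and -0.35. The differences thus did not run evenly from 5' to 3' at 6 h. Replicate 1 at 6 h was the highest array in the main probe set and the lowest in the 5' set. The Gapdh control sets differed less: the 5' set gave 0.07 and -0.09, and the 3' set 0.04 and -0.002. Control probe sets were left out of the test.

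**Figure D5:**
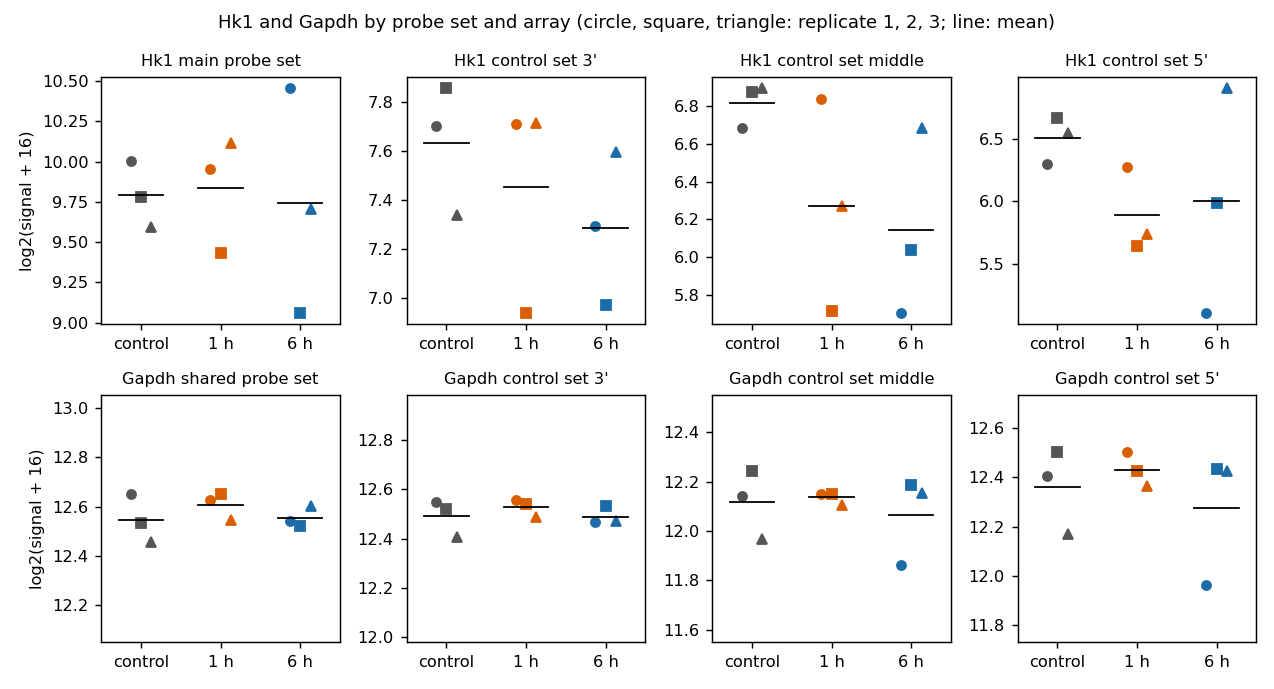
log2(signal + 16) after quantile normalization (y axis, at least 1 log2 unit per panel) of probe sets for Hk1 (top) and Gapdh (bottom) on each array, by group (x axis), with marker shape for replicate and a line at the group mean. For Hk1, replicate 1 at 6 h is highest in the main probe set (10.46) and lowest in the 5' control set (5.11). The Gapdh sets vary less.

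Other genes of glucose metabolism were read from a list of 25, of which 19 were on the array with a single gene name and 13 were tested. At 1 h 8 of the 13 had positive changes (median 0.086) and at 6 h 9 (median 0.079), and 0 passed. Of all genes, 63.5% were positive at 1 h and 61.3% at 6 h. The largest departures by p at 1 h were the phosphoglycerate side-branch enzyme Bpgm (0.32 ± 0.09, adjusted p = 0.33), the intracellular glucose carrier Slc2a8 (0.33 ± 0.10, adjusted p = 0.356) and the sperm-type Gapdhs (0.38 ± 0.16, adjusted p = 0.417), which lay near the filter. Bpgm is abundant in red blood cells, and haemoglobin beta (Hbb) had 0.39 ± 0.12 at 1 h and 0.32 ± 0.12 at 6 h. Its part in the Bpgm value was not tested. Of 13 tested genes around the hypoxia-inducible factor 10 had positive changes at 1 h (median 0.13) and 8 at 6 h (median 0.023), and 0 passed. At 1 h the arrays of 4 (Bnip3, Bnip3l, Ankrd37 and Ndrg1) lay above the control without overlap, with changes of 0.12 to 0.30 (16.8% of all genes). Those of 3 (Bnip3, Bnip3l and Ddit4) were lower at 6 h than at 1 h without overlap (4.99% of all genes). The lowest p there belonged to Ddit4, an inhibitor of mTOR signalling, at 6 h (-0.57 ± 0.16, adjusted p = 0.782). Vegfa had 0.04 ± 0.12 at 1 h and 0.20 ± 0.12 at 6 h.

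Markers of the cell types in hippocampus gave this setting, where all genes had medians of 0.066 at 1 h and 0.037 at 6 h. At 1 h the arrays of 3 of the 12 neuron markers did not overlap with the control, each lower (5.94% of all genes). Of 8 astrocyte markers 1 was lower without overlap, and of 6 oligodendrocyte markers 0 were apart. Of 6 microglia markers 2 were higher without overlap (16.8% of all genes) and 1 was lower. Without overlap, 2 of 7 endothelial markers and 1 of 2 red blood cell markers were higher. Of 12 neuron markers 10 were lower at 1 h (median -0.12) and 9 at 6 h (median -0.12), with summed signals of 25044 to 25855 in control, 24850 to 26682 at 1 h and 24299 to 26504 at 6 h. The 8 astrocyte markers had medians of 0.017 and 0.029 (19640 to 20703, 20522 to 23011, and 20542 to 21578). The 6 oligodendrocyte markers had 0.003 and 0.001 (20729 to 21234, 21575 to 23784, and 20961 to 22987). The 6 microglia markers had 0.13 and 0.028 (1110 to 1203, 1111 to 1230, and 1110 to 1195). They split at 1 h, with 3 positive and 3 negative changes, from -0.39 (Cx3cr1) to 0.75 (Aif1). The 7 endothelial markers had 0.16 and 0.19 (1181 to 1280, 1329 to 1415, and 1249 to 1545). The 2 red blood cell markers had 0.29 at both times (2774 to 3593, 4056 to 5138, and 3727 to 4973). In the same order the 28 members summed to 50524 to 54949, 57819 to 62434, and 52246 to 58482 in deposited signal. The neuron, astrocyte and endothelial lists include the members Eno2, Aldoc and Slc2a1. The part of these cell types in the members' values was not tested.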

How the data were processed

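Each of the 9 arrays gave 1 deposited column of linear signal intensity for 31099 probe sets. The software behind these intensities is not given in the sources used here, as is also true of any filter. That each array was scaled to a common level was read from the deposited values, whose mean without the lowest and highest 2% was 150.05 on every array. No counts lie behind intensities, so the number of arrays limits the precision.

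Values were taken as log2(signal + 16). Array medians spanned 0.206, over a limit of 0.2, so arrays were quantile normalized. The 57 control probe sets and those with a mean below the 40th percentile were left out, which left 18625 (10707 genes at 1 probe set each). One fit with limma 3.58.1 in R 4.3.3 used 1 coefficient per group (6 residual degrees of freedom), an intensity trend and Benjamini-Hochberg adjustment. Intervals are its moderated 95% intervals. Symbols are those of the platform annotation, compared with RefSeq by Entrez number (20764 matched, 68 not, 0 symbols changed). Members named with all their values by rule are those with an unadjusted p under 0.05 in a comparison, or the 3 smallest p of their role at 1 h or 6 h. Outside this rule all values are also given for Hk1, Pgam1, Idh3a, Ogdh and Suclg1, and for the shared probe sets of Gapdh and Pkm. Members and lists were chosen with earlier results of these data known.

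The fit was tested on simulated data, in 10 runs with 200 changed probe sets each at 1 h. It called 19.4% of log2 changes of 0.5 in size, 63.7% of those of 1 and 96.2% of those of 2. Of its calls 5.3% were false, and its 95% intervals held the true change in 94.9% of cases. The members' log2 changes, at most 0.36 in size, lay below the smallest size simulated. Alternatives were other scalings, pseudocounts of 1 and 64, other filters, no trend, array weights, a replicate block, only the compared groups, the 3'/5' ratio as a covariate, and leaving out arrays. Promoters came from RefSeq (29 of 32 members matched). Figures were drawn with matplotlib.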

Additional observations from a re-analysis of the deposited data

How the results depend on the processing

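Over 22 alternative settings, 0 members passed in any comparison. The median log2 change of the members moved beyond the spread between replicates with array medians subtracted, to 0.26 at 1 h and 0.15 at 6 h, a scaling that also moved the median of all genes to 0.15 and 0.10. When 1 array was left out, the members' median ran from 0.032 to 0.13 at 1 h, from -0.009 to 0.072 at 6 h and from -0.085 to 0.002 between the times. Of 1071 values of the 17 named members under these settings, 79 had the other sign, in 24 of 51 gene and comparison pairs, and the lowest adjusted p was 0.195. For calls over all probe sets, 6 at 1 h and 5 at 6 h, the values as deposited gave 2 at 6 h, array medians subtracted 1 at 6 h, no filter 3 and 2, array weights 25 at 1 h, only the compared groups 1 at 6 h, the 3'/5' ratio as a covariate 1 at 6 h, and leaving out both extreme arrays of the principal component analysis (2 arrays) 0 and 1. Leaving out 1 array gave 0 to 10 calls at 1 h, 1 at 6 h and 0 between the times. The replicate block gave 2 calls at 1 h and 1 at 6 h. The cause of these moves was not tested. Same-numbered arrays had correlations of deviations from -0.36 to 0.54, with 3 of 9 pairs over 0.1. Replicate 2 at 1 h and at 6 h deviated together (0.53), also on the next principal component, as did replicate 1 of the control and at 6 h (0.54). Not every pair did, so the numbers were not taken as pairs. Low signal limits what Hk2 can show, and the spread between few arrays limits Hk1, Pfkfb3 and the further Pfkm and Slc2a3 probe sets.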
